A study of Mus musculus with 52 samples.

Results

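The genes of the H3K4 methyltransferases themselves were examined for H3K4 methylation in mouse embryonic fibroblasts (MEFs) with and without excision of MLL2. The members were the rows of the deposited tables with the symbols Kmt2d, Kmt2c, Kmt2a, Kmt2b, Setd1a, Setd1b, and Kmt2e, 7 of 23043 genes, with 1 transcript each. The MEFs were immortalized and carried loxP sites in both MLL2 alleles. FC/FC cells had been exposed for 24 h to tamoxifen, by which exons 3–5 of MLL2 are removed, and were then grown on for some days. F/F cells were untreated, so that genotype and treatment go together in every comparison. H3K4me1, H3K4me2, and H3K4me3 were each mapped by ChIP-seq (sequencing of the DNA that an antibody to the mark brings down) in 3 FC/FC and 3 F/F libraries, 18 in all. The labels name neither animals nor clones, and p-values measure the spread between these libraries. MLL2 is the product of Kmt2d here, whereas the same name has been used in mouse for Kmt2b, and both are among the members.

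Methylation of H3K4 is laid down by a small family of SET-domain enzymes that work in complexes with a shared core. KMT2C and KMT2D are known for H3K4me1 at enhancers, KMT2A and KMT2B for the promoters of developmental genes, and SETD1A and SETD1B for H3K4me3 at active promoters. KMT2E has a SET domain as well but is not known as an active methyltransferase. At an active promoter, H3K4me3 is usually flanked by H3K4me2 and then by H3K4me1.

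RPKM are reads scaled to the length of the transcript and to a total for the library. That total equalled the sum of the reads counted over all transcripts, so it is not the sequencing depth. It was 26714377 to 38871331 reads for H3K4me1, 31514831 to 49990775 for H3K4me2, and 29716371 to 48469734 for H3K4me3. For H3K4me1, the totals were 31253262 to 38871331 in FC/FC and 26714377 to 30528079 in F/F. Every FC/FC library of this mark thus had a higher total than every F/F library, and this total and genotype go together. Whether the libraries also differed in sequencing depth, on which peak calls depend, is not known. Each member received 338 to 5502 reads per library for H3K4me1, 1239 to 5712 for H3K4me2, and 1547 to 7646 for H3K4me3. Of 10 fibroblast genes, 8 had H3K4me3 above 1 RPKM in all 6 libraries, against none of the 13 epithelial, haematopoietic, endothelial, and neural genes. H3K4me2 FC/FC replicate 1 carries the catalogue number of the H3K4me1 antibody in its labels, and the H3K4me2 comparisons of RPKM and of promoter length are therefore given with and without it.

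The excised part of Kmt2d is shown first, since it separates FC/FC cells from F/F cells. Kmt2d lies on the minus strand at chr15:98831669-98871205 (mm10). Exons 3, 4, and 5 are 127, 224, and 110 bp long and together hold 461 bp, which is not a whole number of codons. They are given here from RefSeq (GRCm38.p6), on the coding strand, at chr15:98866376-98866502, chr15:98865996-98866219, and chr15:98865789-98865898.
Kmt2d exon 3: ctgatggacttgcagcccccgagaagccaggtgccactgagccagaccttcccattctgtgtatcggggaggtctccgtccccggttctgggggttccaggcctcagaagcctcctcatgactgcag
Kmt2d exon 4: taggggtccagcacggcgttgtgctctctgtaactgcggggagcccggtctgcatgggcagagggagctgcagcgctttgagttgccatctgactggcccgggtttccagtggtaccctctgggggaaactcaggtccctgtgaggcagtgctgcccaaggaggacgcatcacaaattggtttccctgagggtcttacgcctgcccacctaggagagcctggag
Kmt2d exon 5: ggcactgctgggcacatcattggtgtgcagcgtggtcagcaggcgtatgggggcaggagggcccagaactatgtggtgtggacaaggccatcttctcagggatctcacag
When the coding bases of exon 2 (49 bp) were joined to exon 6 in the reference, the frame met a stop codon after 64 codons, against 5588 codons in the full transcript. The joined sequence, with the stop in capitals, is:
Kmt2d exons 2 and 6: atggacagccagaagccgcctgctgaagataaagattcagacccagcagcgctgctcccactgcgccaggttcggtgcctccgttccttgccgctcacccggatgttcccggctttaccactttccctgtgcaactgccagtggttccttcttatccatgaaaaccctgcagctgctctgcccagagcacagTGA
The span from exon 3 to exon 5 is 714 bp, 1.81% of the Kmt2d transcript, and the RPKM tables give a single value per transcript. They therefore do not check the excision in the individual libraries. No H3K4me1, H3K4me2, or H3K4me3 peak overlapped this span in any library of either genotype (0 of 18).

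Promoter sequences of 4 members, from 250 bases before to 50 after the start, were matched in RefSeq (GRCm38.p6). They are shown because each lies inside or beside the H3K4me3 peak of its gene, with matches to the GC box GGGCGG on either strand in capitals. The positions are chr15:98871156-98871455 for Kmt2d, chr5:25498734-25499033 for Kmt2c, and chr9:44881240-44881539 for Kmt2a, all on the minus strand, and chr7:127777139-127777438 on the plus strand for Setd1a.
Kmt2d promoter: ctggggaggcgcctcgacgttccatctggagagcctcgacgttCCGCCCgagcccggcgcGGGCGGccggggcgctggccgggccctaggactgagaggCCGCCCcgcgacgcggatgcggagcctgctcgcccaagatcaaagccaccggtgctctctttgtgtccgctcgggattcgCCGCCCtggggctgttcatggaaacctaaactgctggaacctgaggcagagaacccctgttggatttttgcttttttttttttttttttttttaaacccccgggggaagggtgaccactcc
Kmt2c promoter: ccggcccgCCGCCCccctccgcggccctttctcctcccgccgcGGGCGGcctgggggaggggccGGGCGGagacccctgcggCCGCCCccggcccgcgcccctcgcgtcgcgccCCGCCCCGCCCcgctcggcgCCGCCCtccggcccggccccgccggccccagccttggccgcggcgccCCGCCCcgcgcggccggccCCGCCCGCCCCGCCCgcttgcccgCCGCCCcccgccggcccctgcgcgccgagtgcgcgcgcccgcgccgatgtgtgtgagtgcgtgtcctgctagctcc
Kmt2a promoter: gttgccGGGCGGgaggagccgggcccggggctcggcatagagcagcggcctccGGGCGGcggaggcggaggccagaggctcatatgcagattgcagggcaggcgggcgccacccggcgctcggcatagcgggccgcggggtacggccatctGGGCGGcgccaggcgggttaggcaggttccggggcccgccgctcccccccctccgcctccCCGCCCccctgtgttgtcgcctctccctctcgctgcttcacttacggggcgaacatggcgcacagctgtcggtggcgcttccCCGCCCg
Setd1a promoter: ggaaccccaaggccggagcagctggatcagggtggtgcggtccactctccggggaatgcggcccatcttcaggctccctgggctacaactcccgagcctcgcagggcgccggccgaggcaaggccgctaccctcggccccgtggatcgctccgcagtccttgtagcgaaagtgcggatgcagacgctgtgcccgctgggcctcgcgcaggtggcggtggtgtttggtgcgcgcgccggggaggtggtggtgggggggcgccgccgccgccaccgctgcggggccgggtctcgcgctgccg
The GC box was found 12 times in the Kmt2c promoter, 5 times in Kmt2a, 4 times in Kmt2d, and not at all in Setd1a, and 35.7% of 32851 promoters held at least 1. CCAAT (in 37.4% of promoters), TATAAA (13.6%), and CCGGAAG (8.86%), searched on both strands, were in none of the 4. All 4 were rich in CpG, which the GC box contains, with 56 in Kmt2c, 36 in Kmt2a, 35 in Setd1a, and 27 in Kmt2d, against a median of 7. The other members are Kmt2b (chr7:30568855-30588726, minus), Setd1b (chr5:123142193-123168630, plus), and Kmt2e (chr5:23434429-23504229, plus). The whole transcripts of Kmt2c (226990 bp, the longest of the 7), Kmt2a, and Setd1a lie at chr5:25271794-25498783, chr9:44803355-44881274, and chr7:127777389-127800119.

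At these promoters, each mark had its own place in both genotypes. An H3K4me3 peak covered the transcript start in 40 of the 42 combinations of gene and library (95.2%). Over all 12205 genes with an H3K4me3 promoter peak in every library, the mean share was 96.9%. H3K4me2 peaks covered the start in 31 of 42 combinations (73.8%, against 95.8% over the same genes), and H3K4me1 peaks in none (23.0% over those genes). Without H3K4me2 FC/FC replicate 1, the H3K4me2 count was 25 of 35 (71.4%). These shares are a description and were not tested. The H3K4me2 gap was found at Kmt2b in all 6 libraries and at Kmt2a in all but FC/FC replicate 1. At Kmt2b, the H3K4me2 peaks stopped 52 to 108 bp before the start in FC/FC and 41 to 145 bp before it in F/F. They began again 80 to 202 bp past it in FC/FC and 135 to 234 bp past it in F/F. H3K4me1 began farther out, for Kmt2b at 870 to 1095 bp past the start in FC/FC and at 936 to 1049 bp in F/F.

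**Figure D1:**
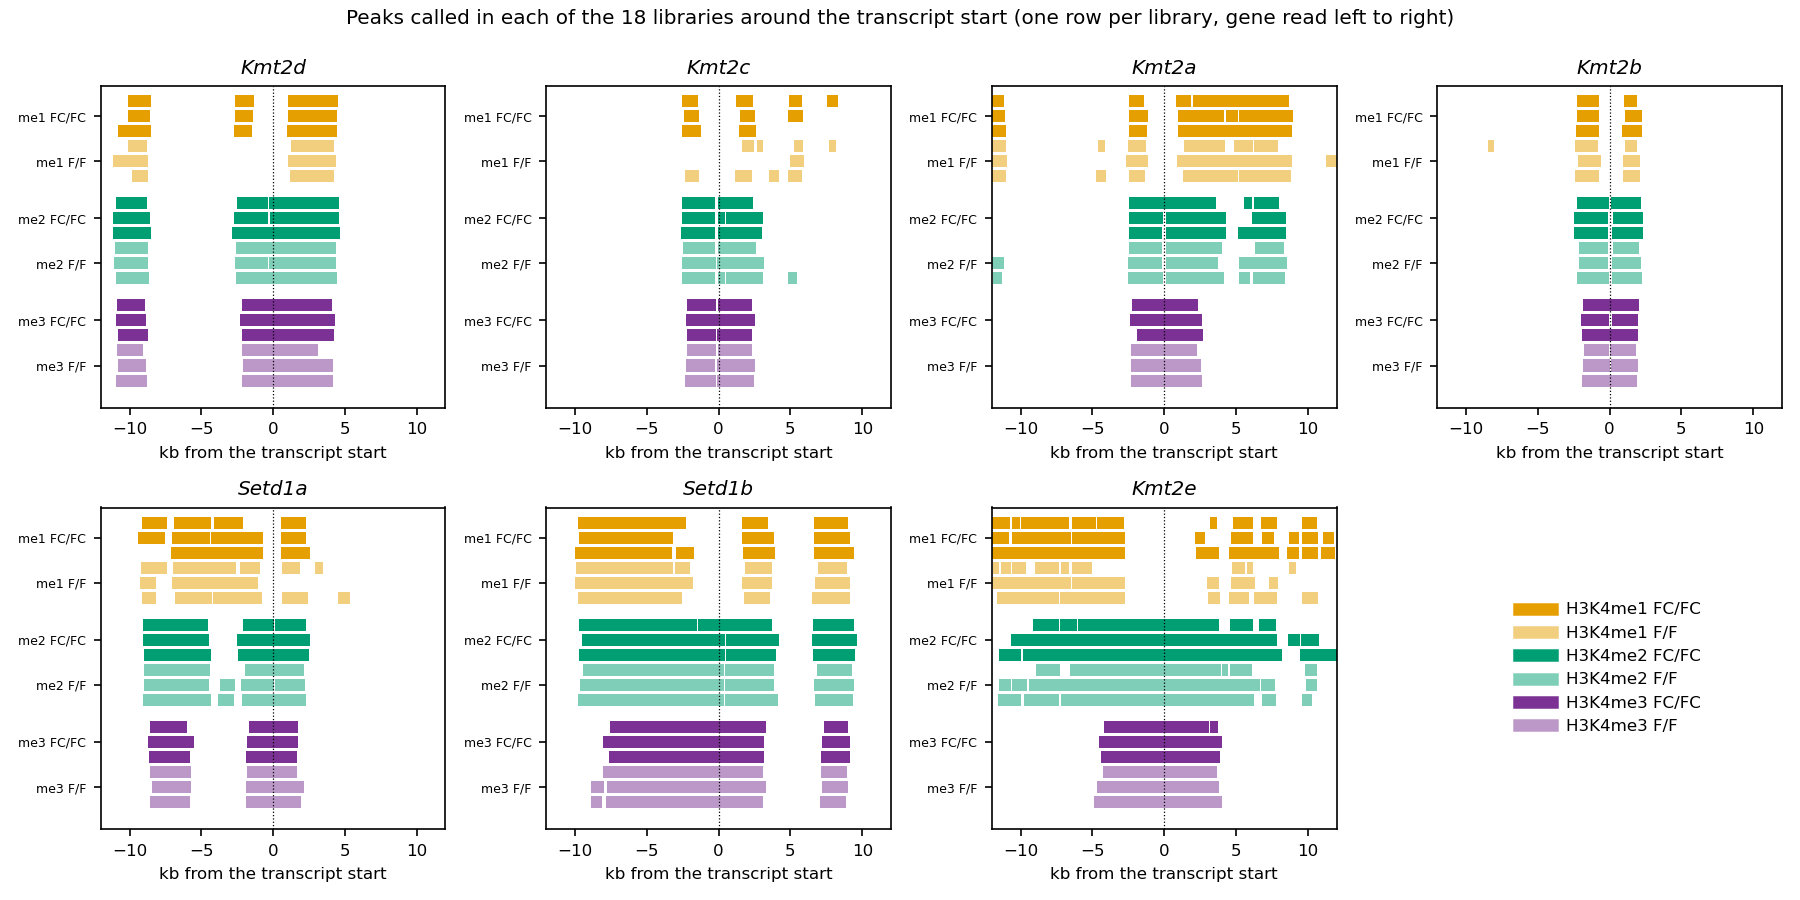
Peaks called in each library around the transcript start of the 7 genes. The x axis gives kilobases from the start in the direction of transcription, and each row is 1 of 18 libraries, FC/FC (full colour) above F/F (pale) for each mark. H3K4me3 peaks span the start, and H3K4me1 peaks lie to the side of it in both genotypes.

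The H3K4me3 domains of several members were long. Promoter peak length, the summed length of the peaks that overlap the start ± 1 kb, averaged 10976 bp over the 6 H3K4me3 libraries at Setd1b, 8138 bp at Kmt2e, and 6199 bp at Kmt2d. All 3 lengths lay at or above the 97.3rd percentile of the 12957 genes with such a peak, whose median was 2785 bp. Kmt2a (4757 bp), Kmt2c (4563 bp), Kmt2b (3782 bp), and Setd1a (3639 bp) lay between the 76.6th and the 91.9th percentile. The Kmt2c peaks also covered the start of 4831440E17Rik, and the Kmt2e peaks that of 5031425E22Rik, so that these lengths are shared with a neighbour. The merged H3K4me3 region of Setd1b covered no other start. Its merged H3K4me2 region, which reached farther upstream, covered that of Rhof.

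The level of each mark over the whole transcript set the members apart from each other far more than the genotypes did. For H3K4me3, Kmt2b averaged 2.94 RPKM in FC/FC and 2.87 in F/F, and Kmt2d, Setd1a, Setd1b, and Kmt2e followed, down to 2.15 RPKM in each genotype. Neighbours in this order overlapped in their libraries, other than Setd1b and Kmt2e in FC/FC. Kmt2a (0.730 RPKM in FC/FC and 0.710 in F/F) and Kmt2c (0.438 in FC/FC and 0.416 in F/F) stood below them without overlap. These are the longest transcripts, and RPKM divides by the length. For H3K4me2, Setd1b was highest, with 3.52 RPKM in FC/FC and 3.30 in F/F, ahead of Kmt2d with 2.80 in FC/FC and 2.50 in F/F. Without FC/FC replicate 1 the FC/FC means were 3.33 RPKM for Setd1b and 2.76 for Kmt2d. For H3K4me1, Kmt2e was highest, with 1.27 RPKM in FC/FC and 1.12 in F/F, and Kmt2c lowest, with 0.594 in FC/FC and 0.540 in F/F.

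**Figure D2:**
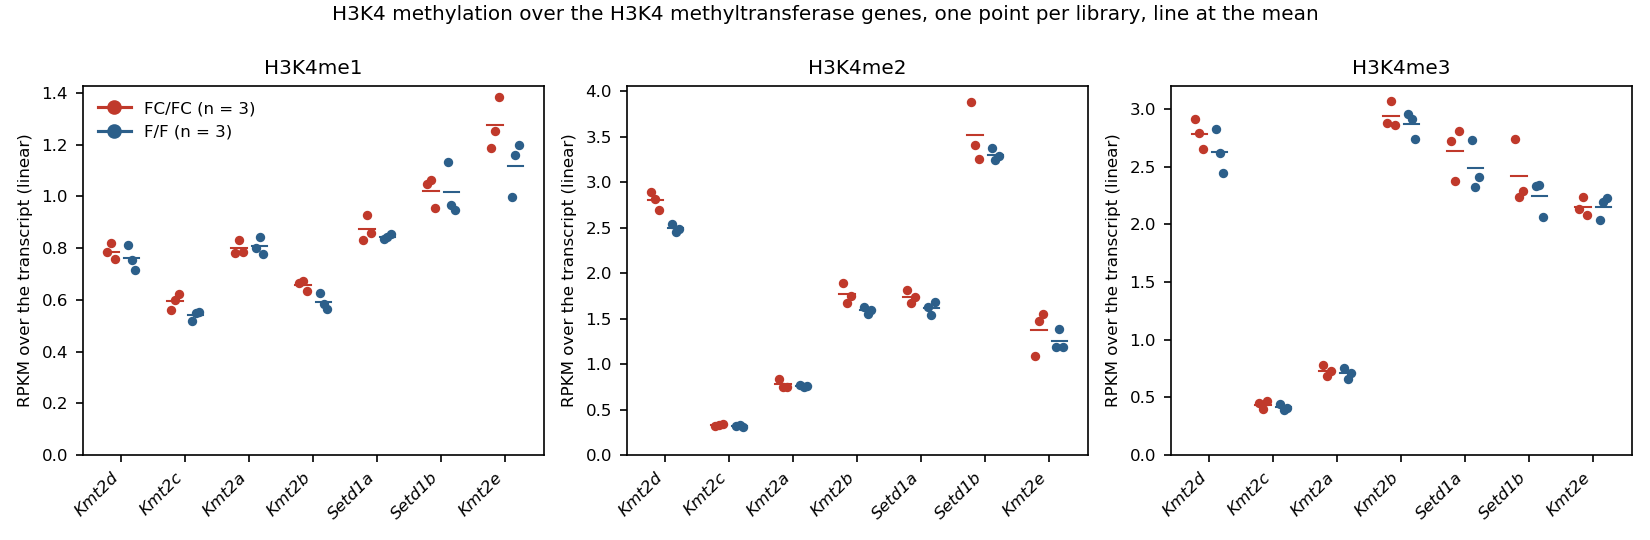
RPKM of each mark over the 7 genes. Points are libraries (3 FC/FC, left and red, and 3 F/F, right and blue, for each gene), lines are means, and the y axis is linear from 0. The genes differ by more than the genotypes do, and Kmt2a and Kmt2c are lowest for H3K4me2 and H3K4me3.

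The next question was whether H3K4 methylation at these genes differed in FC/FC cells, as MLL2 is itself 1 of the enzymes. None of the tested members passed for any mark (limma on log2(RPKM + 0.1), adjusted p under 0.05 over all genes tested). Tested were 2 members for H3K4me1, 5 for H3K4me2, and 5 for H3K4me3, those above 1 RPKM in at least 3 of the 6 libraries. Few or no genes of the background passed after adjustment either. No gene of 8567 passed for H3K4me1 (0% in either direction, with 2144 at an unadjusted p under 0.05 and 708 passing by limma-voom). For H3K4me2, 0.591% of 9986 genes were called higher (59) and 1.55% lower (155), a split of 26 to 437 with libraries centred on their medians and 28 to 337 after quantile normalization. For H3K4me3 none of 9073 passed (0%, with 338 at an unadjusted p under 0.05 and 0 by limma-voom). Among the members, the unadjusted p by limma was under 0.05 for none in H3K4me1, 2 of 5 in H3K4me2, and none in H3K4me3. For H3K4me2, 2900 of the 9986 genes tested had such a p. By limma-voom no member was called. The log2 differences of the 7 members ran from -0.01 to 0.17 for H3K4me1, from 0.03 to 0.16 for H3K4me2, and from -0.00095 to 0.10 for H3K4me3. Their medians were 0.04, 0.10, and 0.06 for H3K4me1, H3K4me2, and H3K4me3. The medians of all genes tested were -0.0029, 0.07, and 0.01, but the 7 members include genes below the filter, and with no filter on RPKM the medians of all genes were 0.06, 0.04, and -0.0019. For H3K4me1 the median of the members thus lay below that of all genes without the filter. Without FC/FC replicate 1 the H3K4me2 median of the members was 0.07, beside 0.06 for all genes tested.

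**Figure D3:**
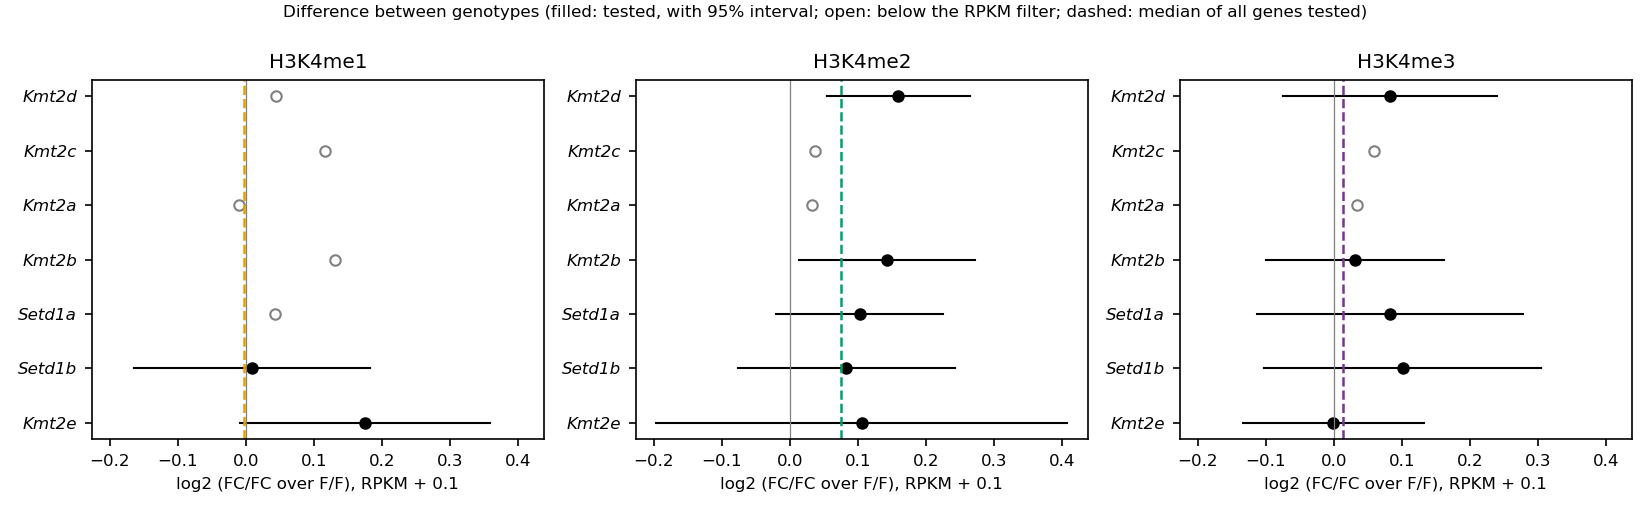
Difference between FC/FC and F/F for each gene and mark. The x axis is log2 of FC/FC over F/F on RPKM + 0.1, filled points with their 95% intervals are genes that were tested, open points are genes below the RPKM filter, and the dashed line is the median of all genes tested. For H3K4me2 the intervals of Kmt2d and Kmt2b lie above 0 and include the dashed line, and none of the 7 genes passed after adjustment.

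Kmt2d, the excised gene, had 2.89, 2.82, and 2.69 RPKM of H3K4me2 in FC/FC, against 2.55, 2.46, and 2.49 in F/F. All 3 FC/FC libraries were above all 3 F/F libraries, an order that 2 of the 7 members (Kmt2d and Kmt2b) had for H3K4me2. It was found in 17.3% of all genes, and in 27.2% of the 9986 genes tested, to which both members belong. The log2 difference was 0.16 (SE 0.04, 95% interval 0.05 to 0.26), and the adjusted p by limma was 0.0901. Without FC/FC replicate 1 it was 0.14, with an adjusted p of 0.0503. It was 0.10 both with libraries centred on their medians (adjusted p 0.253) and after quantile normalization (adjusted p 0.242). H3K4me3 over Kmt2d was 2.91, 2.79, and 2.65 RPKM in FC/FC, against 2.83, 2.62, and 2.44 in F/F. H3K4me1 was 0.784, 0.818, and 0.758 RPKM in FC/FC and 0.812, 0.755, and 0.714 in F/F. For these 2 marks the genotypes overlapped. The Kmt2d values also take in a peak at 38018 to 39816 bp from the start, at the 3′ end of the gene, which covers the start of Prkag1.

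The promoter domain of Kmt2d reached farther into the gene in all FC/FC libraries than in all F/F libraries for 2 of the 3 marks. Its edges were those of the outermost peaks that overlap the start ± 2 kb. The downstream edge of the H3K4me2 peaks lay 4569, 4564, and 4642 bp from the start in FC/FC, against 4368, 4377, and 4464 bp in F/F. That of H3K4me1 lay at 4502, 4465, and 4451 bp in FC/FC, against 4238, 4387, and 4254 bp in F/F. FC/FC edges were thus the farther ones in every library of these marks, by 189 bp for H3K4me2 and 180 bp for H3K4me1 on average, whereas the H3K4me3 edges (4090 to 4313 bp in FC/FC and 3134 to 4164 bp in F/F) overlapped. Over all genes with such peaks in all 6 libraries, FC/FC edges were farther without overlap in 10.8% for H3K4me2, 6.65% for H3K4me1, and 2.03% for H3K4me3. The H3K4me2 edge shares include FC/FC replicate 1 and are not given without it. For H3K4me2 promoter peak length, leaving that library out took the share of genes longer in FC/FC without overlap from 10.1% to 54.9%. Exon 2 spans 4448 to 4533 bp and exon 3 begins at 4703 bp, so that the edges end just before the excised exons. Of all 42 edges of the 7 genes (upstream and downstream, in 3 marks), 5 were farther out in FC/FC without overlap, 1 was nearer, and 4 could not be given in all 6 libraries. Of the 5, the upstream H3K4me1 edge of Kmt2d (5.99% of all genes), is no shift of an edge, since F/F had no peak within 2 kb before the start, and is the same observation as the upstream region described next. The others that were farther out were the downstream H3K4me2 edge of Setd1a and the upstream H3K4me2 edge of Kmt2b (10.4%), and the nearer one was the upstream H3K4me2 edge of Kmt2a (1.69%). The edges were chosen for description after their values had been seen, and have no test.

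**Figure D4:**
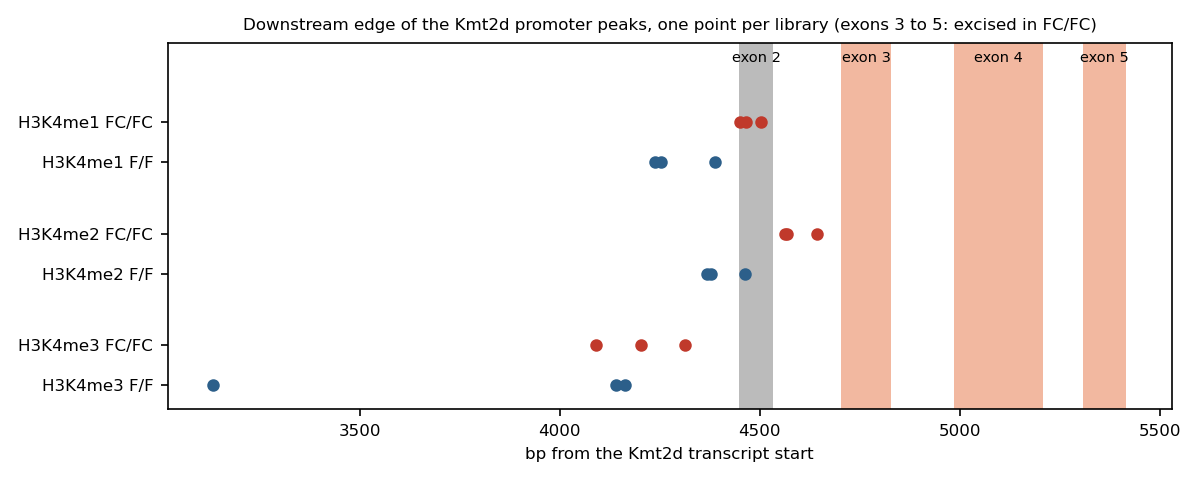
Downstream edge of the Kmt2d promoter peaks in each library, in bp from the transcript start, with FC/FC (red) above F/F (blue) for each mark and exons 2 to 5 shaded. For H3K4me1 and H3K4me2 all 3 FC/FC edges lie nearer to exon 3 than all 3 F/F edges.

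Upstream of Kmt2d, an H3K4me1 region at chr15:98872553-98873934 was called in 3 FC/FC libraries and in no F/F library. Its peaks were weak, with scores (a scaled log of the MACS p-value, higher for stronger peaks, minimum 50) of 86.3, 98.96, and 70.7 in FC/FC. The FC/FC libraries of H3K4me1 also all had higher totals of reads over transcripts than the F/F libraries. Their sequencing depth is not known, and an effect of depth on this call was not tested. Of the 50 H3K4me1 regions within 3 kb of the members, 1 had this pattern, 0 had the reverse, and 26 were called in all 6 libraries. Over all 114290 H3K4me1 regions, 0.43% were called in all 3 FC/FC libraries only, 0.793% in all 3 F/F libraries only, and 49% in all 6. For H3K4me2, 1 of 30 regions had the reverse pattern and 0 had this one. It lay beyond the 3′ end of Kmt2a (chr9:44801623-44802697), with F/F scores of 98.55, 140.08, and 181.88. Over all 74134 H3K4me2 regions, 2.08% were called in all 3 F/F libraries only and 0.101% in all 3 FC/FC libraries only. At the Kmt2d upstream region, H3K4me2 peaks reached into the stretch in both genotypes. The 300 bases at the centre of the part that the 3 FC/FC peaks share (chr15:98873095-98873394, minus strand) are shown with CpG in capitals. They held 2, against the 27 in the Kmt2d promoter.
Kmt2d upstream H3K4me1 region: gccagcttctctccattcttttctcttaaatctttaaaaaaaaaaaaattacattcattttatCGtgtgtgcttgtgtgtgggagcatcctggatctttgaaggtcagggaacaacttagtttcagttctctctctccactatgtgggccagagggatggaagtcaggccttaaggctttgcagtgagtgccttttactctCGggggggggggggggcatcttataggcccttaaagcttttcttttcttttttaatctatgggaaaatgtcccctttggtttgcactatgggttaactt

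Kmt2c, the closest paralog of Kmt2d, was below the RPKM filter for all 3 marks and had no test. Its H3K4me1 level was 0.561, 0.600, and 0.621 RPKM in FC/FC, against 0.517, 0.550, and 0.554 in F/F, with all FC/FC libraries above all F/F libraries. Over all genes, 22% had this order for H3K4me1, and 2 of the 7 members did. For H3K4me2 (0.320 to 0.340 RPKM in FC/FC and 0.312 to 0.334 in F/F) and H3K4me3 (0.398 to 0.467 in FC/FC and 0.394 to 0.443 in F/F) the genotypes overlapped.

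Kmt2c carried H3K4me1 peaks along its length. Each library had 9 to 12 intragenic H3K4me1 peaks, 10, 10, and 10 in FC/FC and 12, 9, and 9 in F/F. They covered 9216, 9769, and 13132 bp in FC/FC, against 7373, 8727, and 9925 bp in F/F, which overlapped (exact two-sided permutation p = 0.3, n = 3 libraries each). The region at 51563 to 53382 bp from the start, in intron 1, was called in all 6 libraries. Its H3K4me1 scores were 306, 320, and 325 in FC/FC and 196, 215, and 266 in F/F. The H3K4me2 scores at this place had the other order, 106 and 124 in the 2 FC/FC libraries in which it was called, against 179, 231, and 236 in F/F, and replicate 1 of FC/FC had no H3K4me2 peak there. Scores depend on depth and are not compared by a test. The region at 51563 to 53382 bp was 1 of 15 merged intragenic H3K4me1 regions of Kmt2c. No share over all regions is given for the order of its scores. Over the whole genome, FC/FC libraries had 56112 to 58585 H3K4me2 peaks and F/F libraries 62100 to 70437. Intragenic H3K4me2 coverage was lower in FC/FC without overlap in 12% of genes with such a peak, and higher in 3.24%. An intron 1 region at 25639 to 27101 bp carried H3K4me2 in all 6 libraries, with scores of 367 to 407 in FC/FC and 353 to 542 in F/F. The centre of the bases shared by all 6 H3K4me1 libraries of the first region (chr5:25446456-25446755, minus strand) is shown, again with CpG in capitals, of which there was 1 in 300 bases.
Kmt2c intron 1 H3K4me1 region: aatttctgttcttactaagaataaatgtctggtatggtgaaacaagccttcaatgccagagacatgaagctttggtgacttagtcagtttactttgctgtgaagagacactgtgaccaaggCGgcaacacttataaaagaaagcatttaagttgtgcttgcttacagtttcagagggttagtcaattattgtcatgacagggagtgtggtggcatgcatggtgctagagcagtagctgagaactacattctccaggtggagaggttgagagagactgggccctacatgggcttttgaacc

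Kmt2e, whose product binds H3K4me3 through its PHD finger, also had many intragenic peaks. H3K4me1 over Kmt2e was 1.19, 1.25, and 1.38 RPKM in FC/FC, against 0.997, 1.16, and 1.199 in F/F. The highest F/F library was above the lowest FC/FC library. The log2 difference was 0.17 (SE 0.08, 95% interval -0.0086 to 0.36) and the adjusted p by limma 0.217. Leaving out single libraries gave 0.10 to 0.22. When libraries were blocked by the order of their numbers, the adjusted p was 0.0395, with 8.03% of all genes called higher and 12.9% lower. No label pairs the libraries, although all 3 H3K4me1 pairs of this order deviated together, and Kmt2e was higher in FC/FC in 3 of 3 pairs. H3K4me2 was 1.09, 1.47, and 1.55 RPKM in FC/FC, against 1.19, 1.39, and 1.19 in F/F, and FC/FC replicate 1 was the lowest of all 6. The log2 difference was 0.11 (SE 0.13, 95% interval -0.20 to 0.41, adjusted p by limma 0.587). Without that library it was 0.25 (SE 0.07, adjusted p 0.0313), and 21.1% of all genes were then called higher and 8.48% lower. With centred libraries it was 0.05 (adjusted p 0.901). H3K4me3 overlapped, with 2.13, 2.24, and 2.08 RPKM in FC/FC, against 2.04, 2.19, and 2.23 in F/F.

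Kmt2e had 14, 12, and 13 intragenic H3K4me1 peaks in FC/FC and 12, 8, and 12 in F/F, which covered 13727, 14583, and 20808 bp in FC/FC, against 7560, 13517, and 16294 bp in F/F (exact two-sided permutation p = 0.4). The genotypes overlapped in both measures. Intron 2 held a region at 26352 to 28448 bp and intron 14 one at 54354 to 55843 bp with H3K4me2 in all 6 libraries. At the intron 14 region the H3K4me2 scores were 194, 256, and 368 in FC/FC and 522, 447, and 469 in F/F. At the intron 2 region they overlapped, with 387, 598, and 925 in FC/FC and 568, 712, and 648 in F/F. These scores depend on depth, have no test, and have no share over all regions beside them. As given for Kmt2c, every FC/FC library had fewer H3K4me2 peaks over the genome than every F/F library. The H3K4me2 promoter peaks of Kmt2e were 9854, 18543, and 17993 bp long in FC/FC, against 10503, 13940, and 13466 bp in F/F, and FC/FC replicate 1 again had the shortest.

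**Figure D5:**
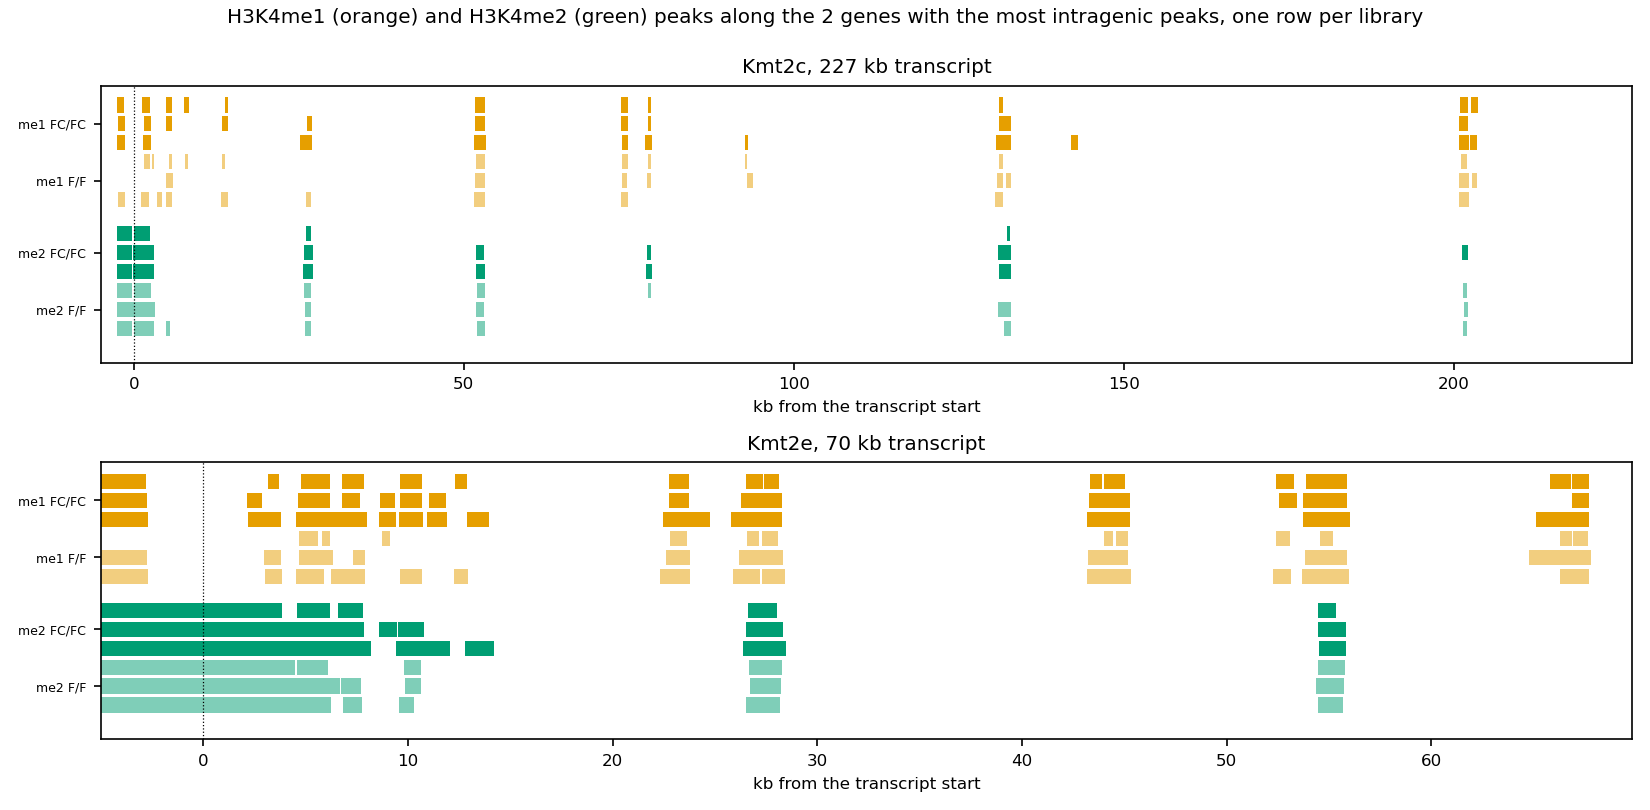
H3K4me1 (orange) and H3K4me2 (green) peaks along Kmt2c and Kmt2e, in kilobases from the transcript start, with 1 row per library and FC/FC (full colour) above F/F (pale). The intron 1 region of Kmt2c near 51563 bp is called for H3K4me1 in all 6 libraries, and for H3K4me2 in 2 FC/FC and 3 F/F libraries.

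Kmt2a and Kmt2b, whose products share menin as a partner, differed in level and in the comparison. Kmt2b had 1.90, 1.68, and 1.75 RPKM of H3K4me2 in FC/FC, against 1.63, 1.56, and 1.60 in F/F. All FC/FC libraries were above all F/F libraries. The log2 difference was 0.14 (SE 0.05, 95% interval 0.01 to 0.27, adjusted p by limma 0.147), and without FC/FC replicate 1 it was 0.10 (adjusted p 0.142). With centred libraries it was 0.08 (95% interval -0.03 to 0.20, adjusted p 0.432). For H3K4me3 no member had all FC/FC libraries above all F/F libraries, against 3.43% of all genes. H3K4me1 over Kmt2b was 0.665, 0.673, and 0.634 RPKM in FC/FC, against 0.628, 0.584, and 0.565 in F/F, again without overlap and below the filter. Its H3K4me3 overlapped (2.86 to 3.07 RPKM in FC/FC and 2.74 to 2.96 in F/F). Kmt2a was below the filter for all marks, with log2 differences of -0.01 for H3K4me1 and 0.03 for both H3K4me2 and H3K4me3. Without FC/FC replicate 1 its H3K4me2 difference was -0.02. Within Kmt2a, an H3K4me1 peak at 52896 to 54855 bp, which overlaps an exon, was 824, 1771, and 1860 bp long in FC/FC, against 433, 845, and 790 bp in F/F. The shortest FC/FC peak was below the longest F/F peak.

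The RPKM of Setd1a and Setd1b, the genes of the SET1 enzymes, overlapped between the genotypes in every mark. Setd1b had 3.88, 3.41, and 3.26 RPKM of H3K4me2 in FC/FC, against 3.38, 3.24, and 3.29 in F/F. FC/FC replicate 1 stood above the other 5 libraries. With it, the log2 difference was 0.08 (SE 0.07, adjusted p by limma 0.418), and without it 0.01 (adjusted p 0.858). Setd1a had 1.67 to 1.81 RPKM of H3K4me2 in FC/FC and 1.54 to 1.68 in F/F (log2 difference 0.10, SE 0.05, adjusted p by limma 0.227, and 0.07 without replicate 1). With centred libraries the H3K4me2 differences were 0.02 for Setd1b and 0.04 for Setd1a. For H3K4me3, Setd1b gave 0.10 (SE 0.09), Setd1a 0.08 (SE 0.08), Kmt2d 0.08 (SE 0.07), Kmt2b 0.03 (SE 0.06), and Kmt2e -0.00095 (SE 0.06), with limma adjusted p of 0.991 or above for all 5. Leaving out single libraries gave 0.013 to 0.153 for Setd1b, 0.036 to 0.153 for Setd1a, and 0.032 to 0.134 for Kmt2d. An intragenic region of Setd1b carried all 3 marks in all 6 libraries, H3K4me3 at 7055 to 9177 bp within intron 6. The 3′ end of the Setd1a values includes the promoter peak of Hsd3b7, at 22565 to 24555 bp for H3K4me2.

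Peak measures were compared next for all 7 genes. Of 63 comparisons (promoter peak length, intragenic coverage, and intragenic peak number, in 3 marks), 2 had no overlap between the genotypes, and both were H3K4me2 promoter peak lengths. Kmt2d had 7094, 7163, and 7510 bp in FC/FC, against 6943, 6960, and 7078 bp in F/F. Kmt2b had 4316, 4545, and 4466 bp in FC/FC, against 3844, 4022, and 4285 bp in F/F. Both gave an exact two-sided permutation p of 0.1, the smallest that 3 against 3 libraries allow, so that no comparison could pass after adjustment. FC/FC lengths were longer without overlap in 10.1% of all genes with an H3K4me2 promoter peak, and over the 3 measures together 9.37% of values for H3K4me1, 11.4% for H3K4me2, and 4.85% for H3K4me3 had no overlap. Without FC/FC replicate 1, H3K4me2 lengths were longer without overlap in 5 of the 7 members (Kmt2d, Kmt2a, Kmt2b, Setd1a, and Kmt2e), and in 54.9% of all genes, and 37% of the 3 measures over all genes then had no overlap. Inside the genes, 24 of 35 intragenic H3K4me1 regions and 10 of 14 H3K4me2 regions were intronic.

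Other genes of H3K4 methylation were compared in the same fit. The list held 29 genes, namely core subunits shared by the complexes, subunits of the MLL2 and MLL3, menin, and SET1 complexes, H3K4 demethylases, and further SET-domain genes. Tested were 9 for H3K4me1, 16 for H3K4me2, and 20 for H3K4me3, and none passed in either direction. Without FC/FC replicate 1, 3 of the 16 were called higher for H3K4me2, beside 21.1% of all genes. They were Rbbp5 (log2 difference 0.17, adjusted p by limma 0.0363) and Ash2l (0.15, adjusted p 0.0446), core subunits of the complexes, and Hcfc2 (0.15, adjusted p 0.0484), a relative of the HCF-1 cofactor. In the fit with all libraries, the tested genes of the list had median log2 differences of 0.05, 0.08, and 0.0066. The medians of all genes tested were -0.0029, 0.07, and 0.01 for H3K4me1, H3K4me2, and H3K4me3. The unadjusted p by limma in that fit was under 0.05 for 2 genes of the list in H3K4me1, 2 in H3K4me2, and none in H3K4me3. Over all genes tested it was under 0.05 for 2144 of 8567, 2900 of 9986, and 338 of 9073.

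The genes most like each member were those with the smallest root mean square difference of log2(RPKM + 0.1) over the 18 libraries. Kmt2d was nearest to Colgalt1, Akr1b3, and Zfp12 (0.10 to 0.11), Kmt2b to C87436, Afg3l1, and Snapc1 (0.10 each), and Kmt2e to Capza1, Trappc13, and Zdhhc5 (0.08 to 0.11). Setd1a was nearest to Tgfbrap1, Phrf1, and Tcf25 (0.07 to 0.08), and Setd1b to Jph4, Ddrgk1, and Lrfn3 (0.11 each). Kmt2a was nearest to Kat2b, Nceh1, and Ptpra (0.19 to 0.20). Kmt2c had no close neighbour, with Glipr1l2, Gm4792, and Tcf21 at 0.45 to 0.46.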

How the data were processed

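Upstream, base calls came from CASAVA 1.4 and alignments to mm10 from BWA 0.7.10. The deposited RPKM cover each RefSeq transcript plus 500 bp on either side. For every library the authors ran MACS 1.4.2 with an H3 library as its control and deposited the peaks, whose score is a scaled -log10 of the MACS p-value. The authors dropped peaks in blacklisted regions from their own analysis, and whether the deposited lists are the filtered ones is not stated. The other 34 of 52 samples were not analysed here. Peak starts and ends, and transcript lengths, were used as deposited by the authors. Of the transcripts of at least 250 bp, the longest per gene was kept. Values were log2(RPKM + 0.1). For each mark, limma 3.58.1 was fitted to genes above 1 RPKM in at least 3 of 6 libraries (R 4.3.3). The fit used a mean-variance trend and Benjamini-Hochberg over all genes of the mark. It was also run on simulated data with independent noise per gene. Those data lack the deviations shared between libraries that are described below, and no result rests on that run. Reads recovered from the RPKM (100% whole within 0.01 read) were used for limma-voom only. Regions were peaks merged over the 6 libraries of a mark. Other steps used Python 3.11.15, scipy 1.17.1, and pandas 2.3.3. Named were the 7 members, the 3 genes nearest to each, and genes of the 29-gene list that passed, or on which a result turned. The members and lists were chosen with earlier results of these data known. Alternatives were other pseudocounts (0.01 and 1), filters, scalings, transcripts, fits, peak thresholds (score of at least 100), and windows (2 kb), and leaving out each library.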

Additional observations from a re-analysis of the deposited data

How the results depend on the processing

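The log2 differences of the 12 tested combinations of gene and mark were recomputed under 16 alternatives each. Of 192 values, 180 kept their direction and side of the threshold, 10 changed sign, and 2 newly passed. The 2 were Kmt2e for H3K4me2 without FC/FC replicate 1 (0.25), where the number of members passing was 1 in place of 0 (range 0 to 1 with each library left out), and Kmt2e for H3K4me1 with the libraries' number order as a replicate block (0.17, adjusted p by limma 0.0395), where the number passing was also 1. The changes of sign were in values near 0. Setd1b for H3K4me1 was -0.0050 with quantile normalization and -0.034 to 0.083 with single libraries left out, Kmt2b for H3K4me3 was -0.0018 to 0.053, and Kmt2e for H3K4me3 -0.038 to 0.023. The cause was not tested. Among values that kept their sign, leaving out single libraries gave 0.01 to 0.13 for Setd1b and 0.01 to 0.25 for Kmt2e in H3K4me2. H3K4me2 levels, start coverage, and the 29-gene list without FC/FC replicate 1 were added once the values were known. Same-position libraries deviated together for H3K4me1 (r = 0.28 to 0.54), whereas for H3K4me2 (-0.49 to 0.71) and H3K4me3 (-0.22 to 0.72) 1 of 3 pairs did not, and no label pairs them. The block changed no other call of a member, and over all genes it called 1797 for H3K4me1 (0 without it), 8.03% of genes higher and 12.9% lower, 202 for H3K4me2 (214), and 49 for H3K4me3 (0). Over all genes, H3K4me1 calls (0) became 36 with centred libraries, 73 after quantile normalization, 278 in a single fit of all libraries, and 708 by limma-voom. H3K4me2 calls (214) became 463, 365, 437, and 369 in the same order, and 453 with no filter on RPKM. H3K4me3 calls (0) became 30 in the single fit. Without FC/FC replicate 1, 2952 genes passed for H3K4me2, against 0 to 18 without each other library.

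Of the peak measures, 1 for H3K4me1 (Kmt2d promoter length) had no overlap with a window of 2 kb, and 4 for H3K4me2 when every library was held to an equal number of its best-scoring peaks, the added ones being intragenic coverage and peak number of Kmt2e. Leaving out single libraries gave 1 to 4 for H3K4me1, 2 to 7 for H3K4me2, and 0 to 2 for H3K4me3. The 7 were without FC/FC replicate 1, where 37% of values over all genes had no overlap. For the other settings of this paragraph no share over all genes is given, so their counts have no background. With a library left out, a lack of overlap is also easier to reach. With 3 against 3 libraries no peak difference can reach a p under 0.1. The members had 338 to 7646 reads per gene and library, and for H3K4me1 only 2 of the 7 were above the filter.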
